A study of Mus musculus with 6 samples.

Results

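The wild-type habenula libraries are 3 RNA-seq libraries, all those labelled WT, of the 6 in a mouse series that also holds 3 Tet2 cKO libraries. They were chosen by genotype label alone, and the Tet2 cKO libraries enter no value given here. The donors were C57BL/6 mice, 2 months old, with no treatment named; the habenula was flash-frozen, and total RNA was extracted with Trizol. The labels do not say that the 3 libraries came from separate mice or how many mice went into each, so every spread given here is that among 3 libraries and may be partly technical. Nor do they describe the dissection beyond the name of the region. Levels are given as FPKM, counts per kilobase of exon scaled to the library total, which puts genes of different length on one scale. The deposited table lists 55359 genes, of which 21877 are protein-coding nuclear or mitochondrial genes in GENCODE M21 (mouse build GRCm38), and ranks count from the highest mean among these 21877.

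The habenula is a small paired structure of the dorsal diencephalon that lies against the thalamus and the third ventricle. Its medial part holds glutamate-releasing neurons that also make substance P or acetylcholine, project to the interpeduncular nucleus, and carry a high density of nicotinic receptors, through which the region is known for its part in nicotine aversion and withdrawal. The lateral part is made mostly of glutamatergic neurons that act on midbrain dopamine and serotonin centres and is known for its response to disappointing or aversive outcomes. Tac2 encodes neurokinin B, Calb2 the calcium-binding protein calretinin, Slc17a7 the vesicular glutamate transporter VGLUT1, and Gpr151 an orphan G protein-coupled receptor of habenular axons. Nwd2 encodes a protein with NACHT and WD repeat domains, and Pou4f1 (BRN3A) is the POU homeodomain factor that specifies habenular neurons.

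Promoter sequences of the habenula genes are shown because 4 genes with 1 shared order of levels, highest in replicate 2 and lowest in replicate 3, have windows that differ widely in CpG content. Each is the RefSeq window of 300 bases on GRCm38.p6, from 250 bases before to 50 bases after the annotated start, 5′ to 3′ on the gene's own strand, in lower case with every CG dinucleotide (CpG) in capitals. Tac2 lies at chr10:127724228-127724527 on the plus strand, Nwd2 at chr5:63648853-63649152 on the plus strand, Slc17a7 at chr7:45163671-45163970 on the plus strand and Pou4f1 at chr14:104467950-104468249 on the minus strand.
Tac2: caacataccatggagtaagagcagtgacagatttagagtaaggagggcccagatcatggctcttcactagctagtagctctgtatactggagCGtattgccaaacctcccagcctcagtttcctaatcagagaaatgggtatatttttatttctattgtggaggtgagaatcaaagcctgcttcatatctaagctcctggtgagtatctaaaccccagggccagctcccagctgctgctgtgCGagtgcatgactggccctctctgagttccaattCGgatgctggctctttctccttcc
Nwd2: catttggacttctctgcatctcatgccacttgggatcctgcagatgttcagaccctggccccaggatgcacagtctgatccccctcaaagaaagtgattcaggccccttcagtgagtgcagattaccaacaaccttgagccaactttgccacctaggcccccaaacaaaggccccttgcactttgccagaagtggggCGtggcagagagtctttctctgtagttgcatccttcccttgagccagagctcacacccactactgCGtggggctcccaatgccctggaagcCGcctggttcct
Slc17a7: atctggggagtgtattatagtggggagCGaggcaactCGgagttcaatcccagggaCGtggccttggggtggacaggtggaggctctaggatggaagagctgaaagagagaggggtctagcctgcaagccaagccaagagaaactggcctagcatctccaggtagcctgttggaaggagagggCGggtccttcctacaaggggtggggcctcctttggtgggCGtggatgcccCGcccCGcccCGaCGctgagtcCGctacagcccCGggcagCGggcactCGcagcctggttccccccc
Pou4f1: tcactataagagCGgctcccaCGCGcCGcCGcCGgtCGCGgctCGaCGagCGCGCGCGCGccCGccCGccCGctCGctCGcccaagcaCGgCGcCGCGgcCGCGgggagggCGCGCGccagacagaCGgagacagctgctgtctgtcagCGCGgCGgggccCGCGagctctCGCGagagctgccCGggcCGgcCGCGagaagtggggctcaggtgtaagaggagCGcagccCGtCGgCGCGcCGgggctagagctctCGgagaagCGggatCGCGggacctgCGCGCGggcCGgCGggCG

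The Pou4f1 window held 57 CpG dinucleotides, an observed-to-expected CpG ratio of 1.24, higher than in 99.7% of the 15812 protein-coding nuclear genes that matched a RefSeq window (of 19947). By contrast, the Tac2 and Nwd2 windows held 3 each, with ratios of 0.171 and 0.133, and the Slc17a7 window held 13, with a ratio of 0.438. The word TATAAA, searched on both strands, was in none of these 4 windows and was in 12.96% of all matched windows. Lrrc55, Gng8, Chrnb4 and Chrna3, whose windows are not shown, had the same order of levels. Their CpG ratios were 0.191, 0.339, 0.475 and 0.586, all below that of Pou4f1. Over all matched genes the median CpG ratio was 0.137 for genes with no count in any wild-type library and 0.336 for those detected under 1 FPKM. It was 0.748 between 1 and 10 FPKM, 0.803 between 10 and 100 FPKM and 0.757 at 100 FPKM or more. The share of windows with TATAAA ran the other way, from 32.01% of genes with no count to 5.94% of those between 10 and 100 FPKM, and was 11.1% at 100 FPKM or more. Tac2 at 42.1 FPKM and Nwd2 at 25.3 FPKM thus had windows with a CpG ratio nearer to the median of genes without a count than to that of genes at their own level. A match or its absence describes these letters only.

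Library totals were 17297105, 16089676 and 17743639 counts in replicates 1, 2 and 3, and between 25392 and 25498 genes had at least 1 count. WT replicate 3 stood apart from the other libraries. The median gene at 1 FPKM or more differed 1.07-fold between replicates 1 and 2, but 1.14-fold between 1 and 3 and 1.15-fold between 2 and 3. The biological coefficient of variation estimated by edgeR was 5.98% for replicates 1 and 2 alone and 12.1% with replicate 3 included. Mitochondrial transcripts made up 6.33%, 6.25% and 7.66% of counts, and the 2 mitochondrial ribosomal RNAs 0.764%, 0.706% and 1.28%. For this reason habenula marker levels are also given below as means of replicates 1 and 2 alone. Tet2, the gene targeted in the other libraries, measured 3.45, 3.46 and 3.71 FPKM.

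Of the 55359 genes, 14570 (26.3%) had a mean of at least 1 FPKM, 5066 reached 10 FPKM and 298 reached 100 FPKM, while 26157 had no count in any of the 3 libraries. Among protein-coding genes 12396 (56.7%) reached 1 FPKM. The highest nuclear gene was Cpe, carboxypeptidase E, the enzyme that trims neuropeptide precursors, at 1060, 1107 and 1194 FPKM. Next came Ttr, transthyretin, a carrier of thyroid hormone made by the choroid plexus, at 1347, 802 and 430 FPKM, and Eef1a1, a translation elongation factor, at 824, 829 and 845 FPKM. Ttr was first in replicate 1 and below Cpe in replicates 2 and 3, so its place in the order depends on the library. Calmodulin-binding and calcium-sensing genes followed, with Pcp4 at 738 ± 56.6 FPKM (SD, n = 3) and Calm2 at 677 ± 80.8 FPKM. Glial products also stood among the 15 highest: Sparcl1 at 670 ± 45.5 FPKM, Apoe at 662 ± 41.1 FPKM and Cst3 at 509 ± 78.0 FPKM. Hsp90ab1, a chaperone, Atp1b1, a sodium pump subunit, Psap, a lysosomal protein precursor, Snhg11 and Rps15 were also among the 15, between 458 and 537 FPKM.

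All 5 habenula markers were expressed in every library, and they spanned a wide range of levels. Calb2 measured 306, 273 and 332 FPKM (304 ± 29.4, SD, n = 3), rank 50 among protein-coding genes. Gpr151 measured 60.2, 81.0 and 37.5 FPKM, rank 600. Tac2 measured 46.0, 49.6 and 30.8 FPKM, rank 945. Among these, Gpr151, Tac2 and Slc17a7 were highest in replicate 2 and lowest in replicate 3, whereas Calb2 had the reverse order. Slc17a7 measured 45.1, 48.3 and 29.8 FPKM, rank 980, and its range overlapped that of Tac2. Nwd2 measured 28.8, 34.1 and 13.03 FPKM, rank 1794. An annotated transcript, Gm9954, overlaps exons of Nwd2 on the opposite strand, and whether the counting used strand is not given in the sources used here. Without replicate 3 the means were 290 for Calb2, 70.6 for Gpr151, 47.8 for Tac2, 46.7 for Slc17a7 and 31.4 FPKM for Nwd2, and the order of the 5 was the same.

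**Figure D1:**
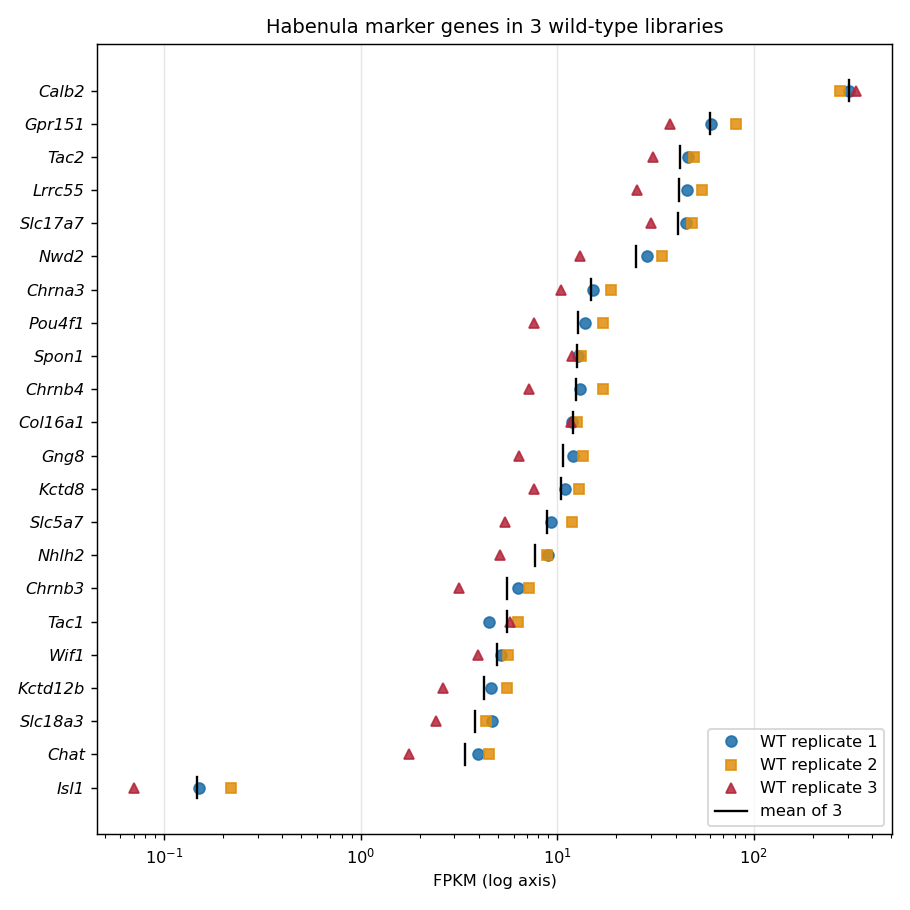
FPKM of 22 habenula marker genes in the 3 wild-type libraries (horizontal log axis), with a black bar at the mean. For most genes the triangle of WT replicate 3 lies left of the other 2 points; Calb2, with replicate 3 at 332 FPKM, and Tac1 are exceptions, and the points of Spon1 and Col16a1 lie close together.

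Transcription factors and other genes that define habenular neurons were lower than these markers. Pou4f1 measured 13.8, 17.0 and 7.61 FPKM, rank 3811. Gng8, a G protein gamma subunit, measured 12.04, 13.52 and 6.37 FPKM, and Nhlh2, a basic helix-loop-helix factor, 8.98, 8.91 and 5.10 FPKM. Isl1, a LIM homeodomain factor of the developing habenula, was at 0.147 ± 0.0751 FPKM, below 1 FPKM in every library. The 5 of 6 pan-habenula genes that reached 1 FPKM were all at least 1.5-fold below both other libraries in replicate 3, which held for 3.81% of all 14570 genes at that level. Without replicate 3 the means were 15.4 for Pou4f1, 12.8 for Gng8, 8.95 for Nhlh2 and 0.185 FPKM for Isl1. Replicate 3 was the lowest of the 3 for 42.4% of those 14570 genes, replicate 1 for 28.9% and replicate 2 for 27.9%. The highest library was replicate 3 for 39.1%, replicate 2 for 34.5% and replicate 1 for 25.6% of them.

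All 18 medial habenula markers reached 1 FPKM. Of these, 16 were lowest in replicate 3 (42.4% of all genes) and 16 were highest in replicate 2 (34.5% of all genes). In replicate 3, 10 were at least 1.5-fold below both other libraries (3.81% of all genes). Gpr151 and Nwd2, among these 10, belong to the pan-habenula list too and were also counted there. Lrrc55, an auxiliary subunit of large-conductance potassium channels, measured 45.6, 54.3 and 25.5 FPKM. Chrnb4, the nicotinic β4 subunit, measured 13.03, 17.09 and 7.22 FPKM, and its partner Chrna3, the α3 subunit, 15.2, 18.8 and 10.4 FPKM. The range of Chrna3 overlapped those of Chrnb4 and of Pou4f1, although Chrna3 was above both in each library. The cholinergic genes were near the lower end of the list: the choline transporter Slc5a7 measured 9.28, 11.9 and 5.40 FPKM. The vesicular acetylcholine transporter Slc18a3 measured 4.67, 4.35 and 2.41 FPKM, and the synthetic enzyme Chat 3.93, 4.49 and 1.77 FPKM. Means of replicates 1 and 2 alone were 49.97 for Lrrc55, 16.99 for Chrna3, 15.06 for Chrnb4, 10.6 for Slc5a7, 4.51 for Slc18a3 and 4.21 FPKM for Chat. The 2 markers not lowest in replicate 3 were Calb2 and Tac1, the precursor of substance P, at 4.52, 6.34 and 5.72 FPKM. Spon1 and Col16a1, which encode matrix proteins, were close to even, with coefficients of variation of 5.70% and 3.73%. In bulk tissue, fewer cells of a type and less RNA per cell cannot be told apart, and neither can a difference in how much of each region a library holds.

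The median coefficient of variation of the 18 medial markers was 30.2%, against 9.83% over all 14570 genes. When replicates 1 and 2 alone were used, it was 10.7%, against 5.06% over all genes. After dividing each marker by Pou4f1 in the same library, a ratio chosen after seeing the data, the median was 13.5%, and 13 of the 18 markers had a smaller coefficient of variation than before. Pou4f1 itself varied by 37.3%, so division alone can lessen the spread of any gene with the same order of libraries. The share of all genes with a smaller value was not computed. Gpr151 then stood at 4.37, 4.76 and 4.93 times Pou4f1, and Chrnb4 at 0.947, 1.005 and 0.949 times. The ratio of Nwd2 to Pou4f1 was 2.09, 2.00 and 1.71. Calb2 differed, at 22.2, 16.1 and 43.6 times Pou4f1, a coefficient of variation of 53.0% against 9.69% before division.

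Lateral habenula markers were all present at 1 FPKM or more, 12 of 12, with a median coefficient of variation of 17.96%. Gap43, an axonal growth protein, measured 212, 196 and 272 FPKM and Slc17a6, the vesicular glutamate transporter VGLUT2, 132, 118 and 118 FPKM. Both are expressed by many other neurons, thalamic neurons among them. Further down, Htr2c, a serotonin receptor, measured 18.8 ± 1.87 FPKM and Pcdh10, a protocadherin, 12.5 ± 1.46 FPKM. Across this list 7 of 12 were lowest in replicate 3 (42.4% of all genes) and 2 were at least 1.5-fold below both others there (3.81% of all genes). In replicates 1 and 2 alone the list's median coefficient of variation was 5.41%, with the same limit of resting on 2 libraries. The means of these 2 libraries were 204 for Gap43, 125 for Slc17a6, 19.5 for Htr2c and 13.4 FPKM for Pcdh10.

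Genes of the adjoining thalamus were at least as high as most habenula markers, and all 14 of 14 reached 1 FPKM. Prkcd, a protein kinase C, measured 108, 114 and 95.3 FPKM, Ramp3, a receptor activity-modifying protein, 89.4, 83.1 and 90.3 FPKM, and Rgs16, a regulator of G protein signalling, 69.2, 61.8 and 74.2 FPKM. Summed over the list, thalamic markers came to 555, 535 and 547 FPKM, and none was 1.5-fold apart in any library. The libraries thus held the markers of the labelled region together with those of the thalamic list in every sample. That list is not exclusive to the thalamus, since Tcf7l2, for one, is also a factor of the habenula. Of the hippocampal list, 8 of 12 reached 1 FPKM, led by Ociad2 at 43.0 ± 4.12 FPKM, which is not specific to hippocampus, and Prox1 at 13.5 ± 1.23 FPKM.

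Markers of choroid plexus and blood had median coefficients of variation of 56.1% and 49.4%. All 13 choroid plexus markers were lowest in replicate 3 and 12 were highest in replicate 1, with list sums of 1604, 954 and 511 FPKM. Besides Ttr, Enpp2 (autotaxin) measured 189, 108 and 57.1 FPKM, Clic6, a chloride channel protein, 13.4, 7.64 and 3.47 FPKM, and Sostdc1, a secreted signalling inhibitor, 10.7, 6.94 and 3.92 FPKM. Of the 13 genes, 9 were at least 1.5-fold above both others in replicate 1, against 1.12% of all genes, and 9 were 1.5-fold below in replicate 3, against 3.81%. Of the ependymal markers, 9 of 10 were highest in replicate 3 (39.1% of all genes), with sums of 64.6, 68.4 and 85.1 FPKM. Sspo, SCO-spondin of the subcommissural organ, measured 0.49, 2.01 and 10.03 FPKM. Replicate 1 was 1.5-fold below both others for Sspo (1.41% of all genes), and replicate 3 was 1.5-fold above (1.91% of all genes). Pineal genes were near 0: Aanat, the enzyme of melatonin rhythm, was at 0.76 ± 0.173 FPKM, and Asmt was at 0.0167 ± 0.0289 FPKM. Haemoglobin genes were highest in replicate 2, where 4 of the 5 expressed blood genes were 1.5-fold above both others (1.37% of all genes), with Hbb-bs at 51.0, 97.3 and 48.8 FPKM. Those 4 were the haemoglobin genes Hbb-bs, Hba-a1 and Hbb-bt, and Alas2, whose mean of 1.09 FPKM was close to the threshold of 1 FPKM. The part of these neighbouring tissues in the order of the habenula markers was not tested.

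Astrocyte, oligodendrocyte, microglial, endothelial and mural lists had median coefficients of variation between 7.72% and 11.3%. Astrocyte markers (12 of 12 at 1 FPKM or more) were led by Aldoc at 270 ± 29.7 and Slc1a2, the glutamate transporter GLT-1, at 97.0 ± 9.87 FPKM. Aqp4, the water channel of astrocyte endfeet, was the only gene of that list 1.5-fold apart, at 46.7, 43.5 and 28.8 FPKM. Mature oligodendrocyte markers (13 of 13) included the myelin genes Mbp at 413 ± 42.4 and Mobp at 243 ± 35.6 FPKM. Microglial genes were lower, with C1qb at 20.9 ± 3.16 FPKM. Endothelial Cldn5, a tight junction protein, was the only one of 10 endothelial markers 1.5-fold apart, at 16.9, 14.4 and 29.0 FPKM. General neuronal genes, all 12 above 10 FPKM, included Uchl1 at 369 ± 53.5 and Snap25, at 246, 232 and 289 FPKM. In replicate 3 their median log2 ratio to the mean of the 3 libraries was 0.07, and that of the medial habenula list was -0.58. Against the mean of 2 libraries, the medial value was -0.36 without replicate 2 and -0.49 without replicate 1, and the choroid plexus value, -0.998 with all 3, was -0.52 without replicate 1 and -1.11 without replicate 2.

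**Figure D2:**
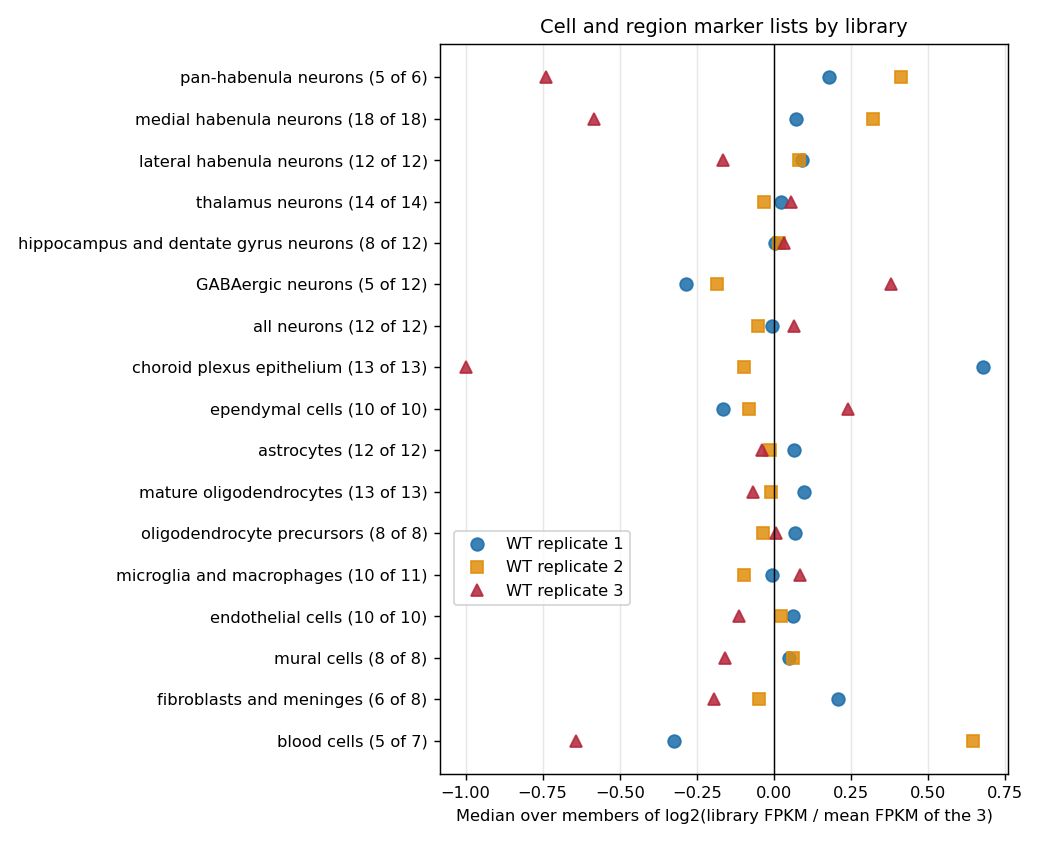
Median over the expressed members of each cell or region list of the log2 ratio of a library's FPKM to the mean of the 3 (horizontal axis); in brackets, members at 1 FPKM or more of all members. WT replicate 3 lies at -0.58 for medial habenula and -0.998 for choroid plexus, while thalamic and glial lists lie close to 0 in each library.

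The main genes of glutamate release, Slc17a6 and Slc17a7, were higher than Gad1, Gad2 and Chat, which encode enzymes that make GABA and acetylcholine. Slc17a6 (122.6 ± 8.37 FPKM) stood 2.99-fold above Slc17a7 (41.1 ± 9.86 FPKM) with ranges that did not overlap, and Slc17a8 (VGLUT3) was at 1.26 ± 0.199 FPKM. Gad2 and Gad1 were low, at 5.12, 5.49 and 8.13 FPKM and at 2.66, 3.38 and 9.27 FPKM. So was the vesicular GABA transporter Slc32a1, at 1.03, 1.22 and 4.45 FPKM. Gad1, Gad2 and Slc32a1 were all highest in replicate 3, and Gata3, a factor of some midbrain and thalamic GABA neurons, was at 0.06, 0.08 and 0.84 FPKM. The sum of Gad1, Gad2 and Slc32a1 was 8.81, 10.1 and 21.9 FPKM. GABA uptake by glia was represented at much higher levels, with the transporter Slc6a11 (GAT-3) at 128 ± 15.2 FPKM and the breakdown enzyme Abat at 58.5 ± 3.45 FPKM.

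Among genes of acetylcholine handling, the enzyme of breakdown was higher than Chat and the transporters. Ache, acetylcholinesterase, measured 29.5, 31.1 and 32.2 FPKM, 3.49-fold above Slc5a7 and with no overlap. Acly, which supplies acetyl-CoA in all cells, was at 45.2 ± 6.87 FPKM. Slc18a3 and Chat were not separable from each other, since Slc18a3 was higher in 2 of 3 libraries. Bche, butyrylcholinesterase, measured 1.67, 1.80 and 0.80 FPKM. With it, 4 of the 7 expressed genes of this list were 1.5-fold below in replicate 3 (3.81% of all genes). The others of these 4, Chat, Slc18a3 and Slc5a7, are medial habenula markers already counted above. Monoamine genes were mostly those of breakdown: Maob was at 40.7 ± 2.38 and Maoa at 21.9 ± 2.39 FPKM. The synthetic enzymes were low, with Th at 1.72 ± 0.673 FPKM, and Pnmt, which makes adrenaline, had no count in 51130420 counts, which allows up to 0.0508 FPKM for counting error alone.

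Of 57 neuropeptide and granin precursors, 30 reached 1 FPKM. Cck, cholecystokinin, led with 124, 119 and 161 FPKM, followed by the granin-like Pcsk1n at 112, 118 and 151 FPKM and the secretogranin Scg2 at 117, 125 and 138 FPKM. These 3 and Chgb (116 ± 9.18 FPKM) overlapped in range from neighbour to neighbour, while Chga at 71.2 ± 10.9 FPKM lay below Chgb and above Tac2 with no overlap. Vgf, a precursor induced by growth factors, measured 34.1, 36.9 and 54.4 FPKM. Its mean of 41.8 FPKM was close to that of Tac2, but Vgf was highest and Tac2 lowest in replicate 3. The ratio of Tac2 to Tac1 was 10.2, 7.82 and 5.39. Of the 30, 5 were 1.5-fold above both others in replicate 3 (1.91% of all genes): Calca, Edn1, Penk, Pdyn and Npy. Of these, Calca (0.58, 0.96 and 1.77 FPKM) and Edn1 (0.76, 0.55 and 1.79 FPKM) reached a mean of 1 FPKM only through replicate 3. Replicate 1 was 1.5-fold below both others for 4 of the 30 (1.41% of all genes), Npy and Calca among them. Penk, proenkephalin, measured 4.39, 5.86 and 12.2 FPKM, Pdyn, prodynorphin, 3.24, 3.92 and 7.67 FPKM and Npy 1.12, 2.86 and 6.37 FPKM. Lower in replicate 3 by the same measure were Adm, Edn3 and Nppa (3.81% of all genes). Gal, galanin, was 1.5-fold below both others in replicate 2 (1.43% of all genes). No count was found for 7 precursors, among them Oxt, Kiss1 and Pyy, which allows up to 0.109, 0.0753 and 0.093 FPKM.

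**Figure D3:**
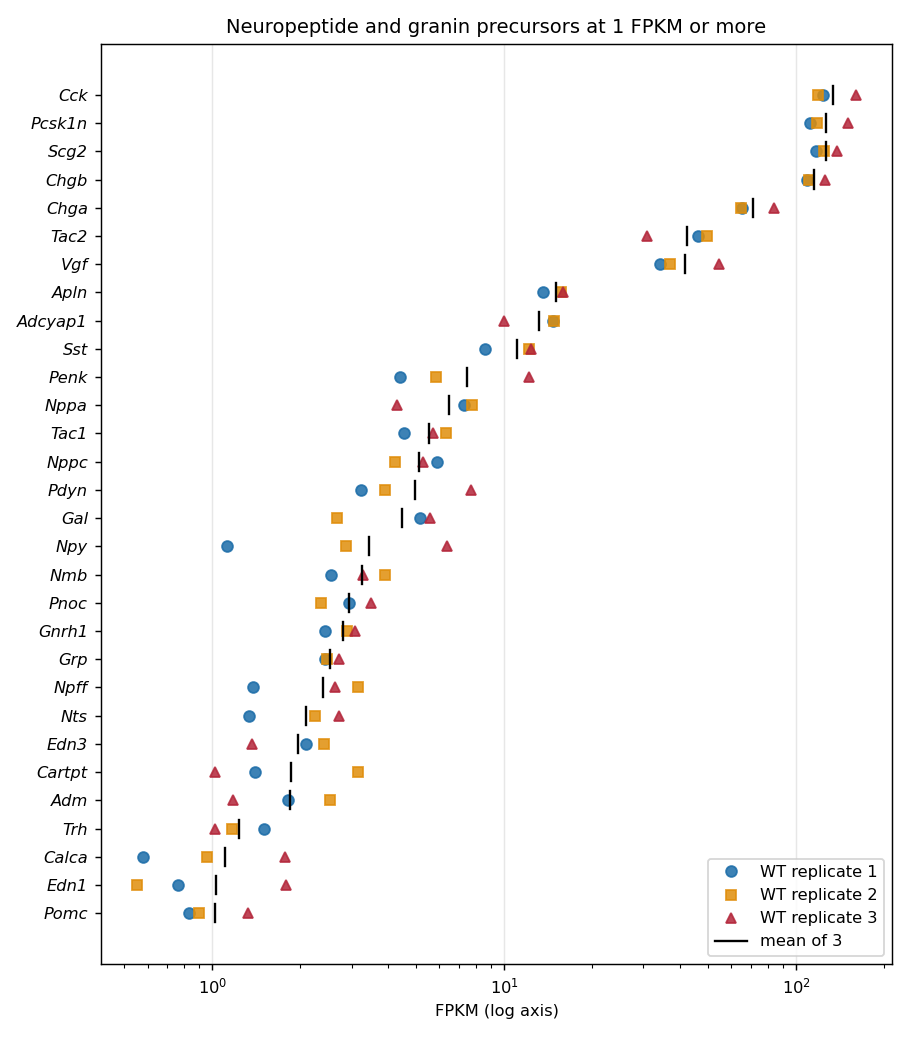
FPKM of the 30 neuropeptide and granin precursors with a mean of 1 FPKM or more in each wild-type library (horizontal log axis), with a black bar at the mean. Cck, Pcsk1n, Scg2 and Chgb lie above 100 FPKM; Tac2 is lowest in WT replicate 3, whereas Penk, Pdyn and Npy are highest there.

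Nicotinic receptor subunits formed a short list: 5 of 16 reached 1 FPKM. The widely expressed neuronal subunits Chrna4 and Chrnb2 measured 21.8, 20.9 and 19.1 FPKM and 16.9, 16.7 and 13.4 FPKM. Chrnb2 overlaps exons of Adar on the opposite strand. The habenular subunits Chrna3 and Chrnb4 followed at 14.8 ± 4.20 and 12.4 ± 4.96 FPKM, and Chrnb3 measured 6.28, 7.19 and 3.18 FPKM. From Chrnb2 to Chrna3 to Chrnb4 the ranges overlapped, whereas Chrna4 lay above Chrnb2 and Chrnb3 below Chrnb4 in every library without overlap. Summed, Chrna4 and Chrnb2 varied little (38.6, 37.6 and 32.5 FPKM), and the sum of Chrna3, Chrnb3 and Chrnb4 was 34.5, 43.0 and 20.8 FPKM. Chrna5, which is encoded next to Chrna3 and Chrnb4 and is studied for nicotine intake, was at 0.17, 0.26 and 0.14 FPKM. Chrna7 was at 0.963 ± 0.518 FPKM, and Chrna10 and Chrnd had no count. Muscarinic Chrm2 was the highest of its family at 7.53 ± 0.854 FPKM.

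The highest receptor gene was Gabbr1. This subunit of the metabotropic GABA-B receptor measured 209, 216 and 168 FPKM, rank 101, and its partner Gabbr2 measured 83.4, 84.4 and 57.4 FPKM. Both were lowest in replicate 3, as were the auxiliary subunits Kctd12 (14.5 ± 2.11 FPKM), Kctd8 (10.5 ± 2.67 FPKM) and Kctd12b (4.24 ± 1.47 FPKM). Kctd12b was 1.5-fold below both other libraries there. Of 23 GABA-A and glycine receptor subunits 17 reached 1 FPKM, with Glrb at 58.9 ± 1.16 and Gabra4 at 49.0 ± 2.95 FPKM. Gabrb2 stood apart from its family at 16.4, 15.7 and 5.40 FPKM. Among ionotropic glutamate receptor subunits (17 of 18), Gria1 led at 81.8, 86.0 and 65.4 FPKM, 3.35-fold above Gria2 by the mean of the library ratios, and Grin1, the obligatory NMDA receptor subunit, was at 23.2 ± 1.91 FPKM. Among metabotropic glutamate receptors (7 of 8), Grm2 was at 16.04 ± 0.554 FPKM and Grm6, a receptor of retinal bipolar cells, had no count.

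Among monoamine receptors, Hrh3, the histamine autoreceptor and heteroreceptor, was highest at 40.05 ± 3.26 FPKM. Serotonin receptors (7 of 14) were led by Htr2c, then Htr7 at 13.1 ± 1.24 and Htr5b at 12.7 ± 4.08 FPKM. The means of Htr7 and Htr5b could not be ordered, since Htr5b was higher in replicates 1 and 2 (13.7 and 16.2 FPKM) and lower in replicate 3 (8.21 FPKM). Of the 7 expressed serotonin receptors, Htr5b, Htr5a and Htr4 were 1.5-fold below both others in replicate 3 (3.81% of all genes). In the same library 1 of the 7 was 1.5-fold above both others (1.91% of all genes). Htr4 is also a member of the lateral habenula list and was counted there. Drd2, the dopamine receptor, was at 4.56 ± 0.544 FPKM. Of the opioid family Oprl1, the nociceptin receptor, measured 16.8, 18.6 and 15.99 FPKM, whereas Oprm1, the μ receptor for which the medial habenula is known, was at 0.66, 0.41 and 0.23 FPKM and was overlapped on the opposite strand by Ipcef1. Peptide receptors were led by Ntsr2 at 48.9 ± 1.61 and Adcyap1r1, the PACAP receptor, at 32.7 ± 2.73 FPKM, both also expressed by astrocytes, and 27 of 67 reached 1 FPKM. The tachykinin receptors Tacr1 and Tacr3, which bind substance P and neurokinin B, were at 3.38 ± 0.805 and 1.86 ± 0.266 FPKM. Adora1, the adenosine A1 receptor, was even at 25.003 ± 0.595 FPKM. Among orphan receptors Gpr151 ranked below Gpr37l1, an astrocytic receptor at 78.3 ± 1.78 FPKM, in replicates 1 and 3 but above it in replicate 2.

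Pacemaker (HCN) channels were all expressed. Hcn2 measured 49.1, 47.5 and 49.5 FPKM, 5.28-fold above Hcn4 (9.22 ± 1.11 FPKM), which was not separable from Hcn3 (7.84 ± 0.965 FPKM). T-type calcium channel Cacna1g, which supports burst firing in thalamic and habenular neurons, measured 29.8, 27.8 and 29.9 FPKM, and the auxiliary subunit Cacnb3 led its family at 53.2, 61.9 and 41.1 FPKM. The sodium channel auxiliary subunit Scn2b (72.3 ± 4.53 FPKM) lay above the pore-forming Scn1a (19.9 ± 2.22 FPKM) and Scn2a (18.1 ± 2.79 FPKM). Kcnj10, the inward rectifier of astrocytes, was the highest potassium channel at 101 ± 9.66 FPKM, and voltage-gated channels were led by the auxiliary Kcnip4 at 46.9 ± 1.41 FPKM and Kcnc2 at 45.6 ± 2.18 FPKM. Kcnma1, the pore of the large-conductance calcium-activated channel, measured 38.2, 41.1 and 24.6 FPKM and was 1.5-fold below in replicate 3, as was Lrrc55. The median coefficient of variation was 9.56% for 124 expressed channel genes and 19.5% for 58 expressed transmitter genes.

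Transcription factors were led by Zic1, a zinc-finger factor of the dorsal neural tube, at 131, 128 and 96.5 FPKM. Tcf7l2, a Wnt effector of thalamus and habenula, was at 49.0 ± 3.34 FPKM and Zic2 at 47.2 ± 4.64 FPKM. Thra, the thyroid hormone receptor alpha, was at 67.2 ± 3.25 FPKM but overlaps Nr1d1 on the opposite strand. Among POU and LIM factors Lhx9 (15.4 ± 1.11 FPKM) was not separable from Pou4f1, and the paralogs Pou4f2 and Pou4f3 had no count. Homeodomain factors were led by Gbx2, a thalamic factor, at 24.2, 19.8 and 29.9 FPKM, and Irx2 measured 12.93, 17.01 and 10.5 FPKM. Nr4a2, an orphan nuclear receptor induced by activity, measured 21.1, 27.6 and 13.4 FPKM, the same order across libraries as Pou4f1. Glial factors Olig1 and Id4 topped the basic helix-loop-helix list at 55.1 ± 3.59 and 51.3 ± 2.39 FPKM. Activity-induced Jund, Fos and Egr1 were at 45.4 ± 2.51, 19.2 ± 1.72 and 15.5 ± 3.76 FPKM. All 18 clock genes were expressed; Hlf was even at 44.3 ± 1.07 FPKM, whereas Dbp measured 29.8, 27.9 and 16.5 FPKM and Nr1d1 31.6, 30.4 and 17.6 FPKM.

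Across the 30 families of transmitter, receptor, channel and transcription factor genes, 489 of 757 genes reached 1 FPKM, 178 reached 10 FPKM and 30 had no count. Of those 489, replicate 3 was 1.5-fold below both others for 52 (10.6%, against 3.81% of all genes) and above for 13 (2.66%, against 1.91%). The 52 include habenula markers already counted above, among them Slc17a7, Chat, Slc18a3, Slc5a7, Chrnb4, Chrnb3, Kctd12b, Lrrc55, Gpr151 and Pou4f1. They are therefore not a result separate from the habenula lists, and the share without those markers was not computed. Replicate 1 was below for 11 (2.25%, against 1.41%) and above for 5 (1.02%, against 1.12%). Replicate 2 was below for 2 (0.409%, against 1.43%) and above for 7 (1.43%, against 1.37%).

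**Figure D4:**
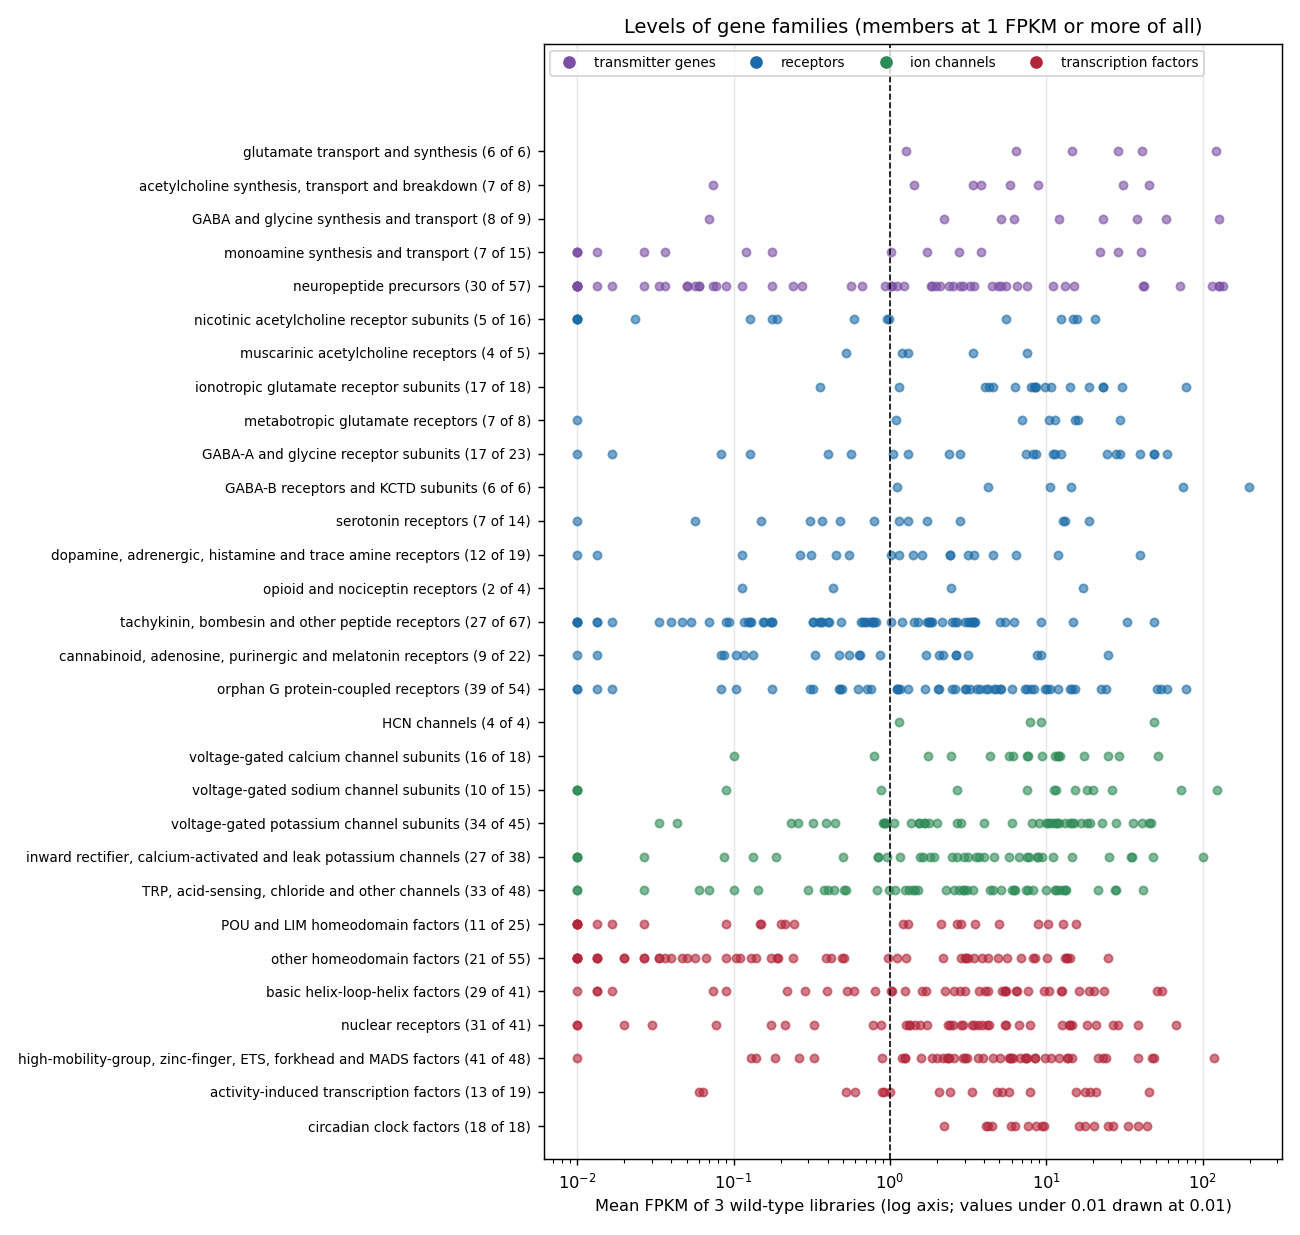
Mean FPKM over the 3 wild-type libraries (horizontal log axis) of each member of 30 gene families, 1 point per gene, with a dashed line at 1 FPKM; in brackets, members at 1 FPKM or more of all. Glutamate transport, HCN channel and GABA-B lists lie wholly above the line, while neuropeptide, peptide receptor and homeodomain lists extend to genes with no count.

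Genes differed between libraries by more than counting alone gives. The median coefficient of variation over 14570 genes was 9.83%, where Poisson counting would give 4.62%, and 80.2% of genes exceeded their own counting value. It fell from 18.6% between 1 and 2 FPKM to 7.04% between 20 and 50 FPKM and was 8.12% at 100 FPKM or more. Among the 7724 protein-coding genes with a mean of 5 FPKM or more that were ranked for spread, the 15 most variable included the choroid plexus genes Ttr, Enpp2, Clic6 and Kcne2, the haemoglobin gene Hba-a1, and Gad1. Nwd2 and Sgk1, a serum- and glucocorticoid-regulated kinase at 25.5, 32.6 and 12.4 FPKM, were lowest in replicate 3, as were Scube1, a secreted protein at 17.8, 22.6 and 7.60 FPKM, and Klhl11 at 7.25, 9.01 and 2.76 FPKM. Higher in replicate 3 were Ctxn3 at 12.9, 11.3 and 29.5 FPKM and Sdf2l1, an endoplasmic reticulum protein, at 4.49, 4.09 and 12.2 FPKM. The remaining members of the 15 were Gabrb2 and a pair with near-identical copies. Rps3a1 measured 98.1, 3.63 and 219 FPKM while its copy Rps3a2 measured 47.0, 141 and 44.2 FPKM, and Capza1 took 55.3%, 23.0% and 73.3% of the counts it shares with Capza1-ps1, so their levels are uncertain. The same holds for Gapdh, a gene with many pseudogene copies, listed at only 4.45, 4.75 and 5.14 FPKM, against 205, 193 and 191 FPKM for Actb. At the other extreme Rims3, Wasl, Prkaca, Mcf2l and Phldb1 differed by less than counting error, with Rims3 at 59.97, 60.0 and 59.98 FPKM, which the ranking itself picked out of 7724 genes.

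**Figure D5:**
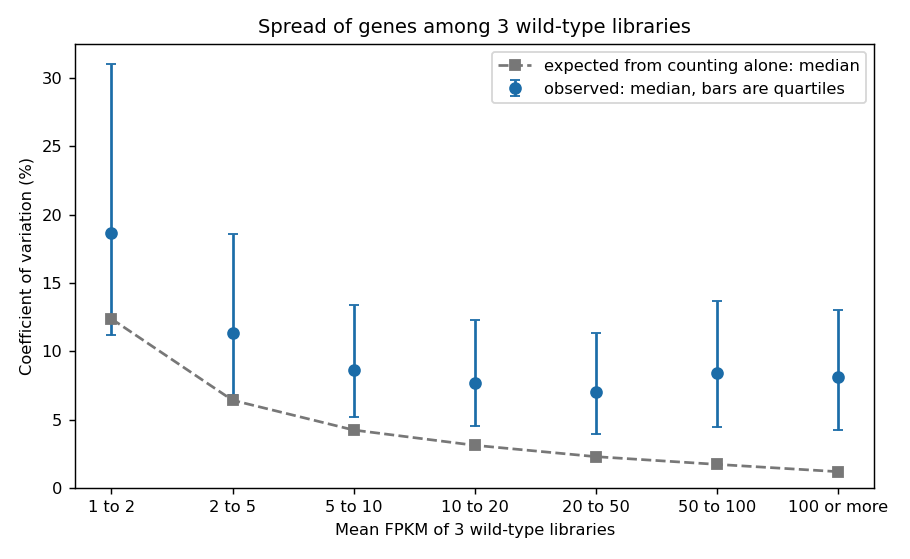
Median coefficient of variation of genes among the 3 wild-type libraries (vertical axis, percent; bars are quartiles over genes) by mean FPKM, with the median expected from Poisson counting as squares. The observed median lies above the counting value at each level and stays between 7.04% and 8.62% above 5 FPKM.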

How the data were processed

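RNA-seq of mouse habenula gave a deposited table of raw read counts per gene and of FPKM values for each library. Per the submitters' processing notes, the authors used HISAT2 2.0.1, cutadapt 1.9.1, SAMtools 0.1.19 and FastQC 0.10.1, with the mm10 genome. Not given in the sources used here were the counting program, its annotation release and its treatment of strand and of reads with several matches. FPKM as deposited by the authors equalled the deposited count per kilobase of the gene size in the table scaled to the library total, within 0.005. Gene size in bases is the deposited table's own value. Coordinates come from GENCODE M21 (GRCm38), joined by gene ID for 52083 of 55359 genes.

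The gene lists and the genes described were chosen with earlier results of these data known. Genes named are the 5 habenula markers, up to 6 highest members and 3 members without a count of each list with their neighbours in the order, defining cell markers, the 15 highest nuclear protein-coding genes, and the 15 most and 5 least variable ones on log2(FPKM + 1) at 5 FPKM or more (predicted genes and pseudogenes left out). Others named for their contrast between libraries, their known place in habenula biology or a copy were chosen after their values were seen. Some genes that this rule names are not reported here. One group of 3 libraries is described, so no groups were tested and no p-value is given. Means ± SD are over the 3 libraries, neighbours are called separable where their ranges do not overlap, and a library is called apart when at least 1.5-fold below or above both others. With 16089676 to 17743639 counts per library, 3 counts, the limit that a count of 0 allows, are 0.169 to 0.186 CPM in a single library; limits printed for genes without a count are over all 3 libraries, and cover counting error only. Spread was estimated with edgeR 4.0.16 (R 4.3.3); tables were made with pandas 2.3.3. Alternatives were TMM and DESeq2 1.42.0 size factors, TPM, other thresholds, another gene length, geometric means, a pseudocount of 1 and leaving out each library.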

Additional observations from a re-analysis of the deposited data

How the results depend on the processing

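Leaving out each library in turn gave between 14506 and 14600 genes at 1 FPKM or more (14570 with all 3), a median coefficient of variation between 5.06% and 9.95% (9.83% with all 3; 5.06% without WT replicate 3), and between 482 and 490 expressed family genes (489 with all 3). A threshold of 5 FPKM left 8396 genes and 276 family genes, and counting every gene with a count gave 29202 genes and a median coefficient of variation of 22.7%, both by construction. Of the values of the 5 main results under alternatives, 36 stayed within their limits. These limits were wide: 1.5-fold for numbers of genes, and an SD over libraries or leave-one-out runs for the rest. For the pan-habenula deviation of -0.741 in replicate 3 the SD was 0.609. For the median marker rank of 945 it was 390. With TPM, 18957 genes and 578 family genes reached the threshold of 1, which counted as within limits. The sign of the median deviation of WT replicate 3 was kept by 15 of 18 cell lists under each alternative run; it changed for the hippocampal list under 3 of them, for oligodendrocyte precursors under 2 and for the thalamic list under 1. Leaving out WT replicate 2 moved the median deviation of WT replicate 3 from -0.58 to -0.36 for medial habenula and from -0.64 to -0.17 for blood markers; leaving out WT replicate 1 moved it from -0.998 to -0.52 for choroid plexus and from -0.16 to -0.10 for lateral habenula. The mean used as reference includes WT replicate 3 itself, which weighs more among 2 libraries than among 3, so part of each move can be arithmetic. Depth limits genes between 1 and 2 FPKM most, where counting alone gives 12.4%. No paired analysis was possible because only 1 group is described and the result comes from no test.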

Other observations

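Genes outside the habenula lists that kept a nearly constant ratio to Pou4f1 in the 3 libraries were sought after the data were seen. Over 14569 genes at 1 FPKM or more, 137 (0.94%) had a ratio to Pou4f1 with a coefficient of variation under 10%, and 7 of 20 habenula list members did (Lrrc55, Slc5a7, Kctd12b, Chrnb4, Gng8, Chrnb3 and Gpr151). With only 3 libraries, which share their order for many genes, this is a description only. Among protein-coding genes at 5 FPKM or more, the steadiest ratio was that of Minar1, at 5.59, 7.02 and 3.11 FPKM, followed by Vav2, a guanine nucleotide exchange factor, at 7.87, 9.28 and 4.23 FPKM. Pde1a, a calmodulin-dependent phosphodiesterase, measured 7.32, 9.32 and 4.27 FPKM, and Gfra1, a receptor for GDNF, 23.4, 28.1 and 13.3 FPKM. Also among the 25 steadiest were Nrp2, a semaphorin co-receptor, at 7.98, 9.21 and 4.23 FPKM and Robo3, a receptor of the Robo family, at 16.6, 21.9 and 10.9 FPKM. Prkcq, a protein kinase C, measured 14.4, 16.5 and 8.41 FPKM, Gpr26, an orphan receptor, 11.2, 12.6 and 5.71 FPKM, and Kcng4, a modulatory potassium channel subunit, 11.5, 12.6 and 5.72 FPKM. Htr5b and Nr4a2 were also in this set.

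Among mitochondrially encoded mRNAs, mt-Co1 measured 14169, 14842 and 16580 FPKM and mt-Co2 only 191, 170 and 198 FPKM, although both encode subunits of the same enzyme complex. The genes that follow mt-Co2 on the mitochondrial genome were low as well. Mean levels were 11.2 for mt-Atp8, 58.7 for mt-Atp6, 55.0 for mt-Co3, 21.8 for mt-Nd3 and 10.5 FPKM for mt-Nd4l. Beyond them mt-Nd4 was at 3639 FPKM. How reads with several matches were counted is not given, so the low levels are uncertain, and their cause was not tested. Of the 13 mitochondrially encoded mRNAs, 10 were highest in WT replicate 3, which was the highest library for 39.1% of all genes at 1 FPKM or more.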
